A study of Danio rerio with 6 samples.

Results

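The probes dre-miR-9, dre-miR-9*, dre-miR-153a, dre-miR-153b, dre-miR-153c and dre-miR-21 were followed in whole zebrafish embryos raised in ethanol. They were found by name: a probe was a member when its name on the array, which joins the names of several species, held one of these 6 zebrafish miRNAs. All 6 were found among 243 zebrafish probes, each printed as 4 spots per array. Embryos grew in system water (control), in 1% ethanol or in 1.5% ethanol from 4 h to 24 h after fertilisation and were collected at 24 h. About 200 embryos shared a dish of 20 mL, absolute ethanol was the only agent named, and strain, sex and the number of embryos per RNA sample are not given in the sources used here. Each group had 2 biological replicates on 1 one-colour (Cy3) array each, so there were 6 arrays in all. In RNA from whole embryos, fewer cells that make a miRNA and less of it per cell cannot be told apart.

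A microRNA (miRNA) is a short RNA that guides a silencing complex to matching sites in messenger RNAs, chiefly through the seed near its 5′ end. miR-9 is made in neural progenitors and young neurons of the vertebrate brain, where it represses progenitor factors such as Her/Hes and TLX, and miR-9* comes from the opposite arm of the same hairpin. In zebrafish, miR-9 is known for its part at the midbrain-hindbrain boundary. miR-153 is enriched in brain, and in zebrafish it is known to target snap25, a protein of synaptic vesicle release. miR-21 is a widely expressed miRNA tied to cell survival. In mouse fetal cortical progenitors, the rodent work from which this set comes, ethanol lowered miR-9, miR-153 and miR-21 along with miR-335. miR-335 is not a member, and no value of its own is given here. It was 1 of 17 further miRNAs of rodent ethanol work that were looked for, of which 16 were measured.

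The mature miRNAs come from several loci. In the RefSeq gene table of the GRCz12tu assembly, used for names and neighbours only, miR-9 has 7 precursor genes, miR-153 has 3 and miR-21 has 2. The 3 miR-153 precursors lay within genes of the PTPRN family of secretory-granule phosphatase-like proteins: mir153a within ptprn2, mir153b within ptprnb and mir153c within ptprna. Neighbours of the miR-9 genes in that table included mef2b, mef2ca, mef2cb and mef2d, which encode MEF2 transcription factors. One miR-21 gene lay between vmp1, of autophagy, and tubd1, and the other between rps6kb1a and ptrh2. The probes are named for mature products, and signal from copies of the same sequence cannot be told apart. How far a probe also reads precursors or close relatives was not tested. The miR-9 probe carries the names of miR-9 or miR-9a of human, rat, chicken and fly as well, the miR-153a probe that of mouse miR-153, and the miR-21 and miR-153b probes those of pufferfish. The miR-153c probe is named for zebrafish alone.

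A probe counted as detected on an array when 50% or more of its kept spots exceeded a limit, the 95th percentile over spots of that array printed empty or blank. The limit lay between 255.7 and 451.1 intensity units, and 35 to 56 of the 243 zebrafish probes passed it per array. It was passed on all 6 arrays by 28 probes and on none by 159. The label of whole embryo was set against miRNA markers of its tissues: neural miR-9, muscle miR-1, epidermal miR-203a and the early-embryo miR-430b were detected on all 6 arrays. Of the other markers of the same tissues, neural miR-128 was detected on 3 arrays, neural miR-124, muscle miR-133a and early-embryo miR-430a on 1 each, and neural miR-138, muscle miR-206, epidermal miR-205 and early-embryo miR-430c on none. Blood miR-144 and miR-451, endothelial miR-126 and liver miR-122 were detected on none either.

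miR-9 was detected on every array. In control its mean foreground was 10354 and 9107 intensity units, against 9307 and 10925 at 1% ethanol, and 9112 and 8434 at 1.5% ethanol, each over 3 kept spots. The raw values of both ethanol groups thus lay around those of the controls, with the lowest array at 1.5%. One of the 4 spots was marked to be ignored on all 6 arrays, among them 3 arrays on which it is listed at 0. The 3 kept spots differed by 10.3% to 13.3% (coefficient of variation).

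miR-21 was also detected on every array, with 2560 and 1521 intensity units in control, 1999 and 2103 at 1% ethanol, and 2364 and 1728 at 1.5% ethanol, over 4 spots each. Both control arrays bracketed all 4 ethanol arrays before normalisation. For miR-153c the mean foreground was 1066 and 654.5 in control, 768.5 and 918.5 at 1%, and 766.75 and 764.7 at 1.5%. Its spots on an array differed by at most 7.09%, and all 23 kept spots were over the limit.

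miR-153a was the member that varied most. Its 4 spots averaged 1007 and 246.25 intensity units in control, 944.5 and 723 at 1%, and 1174 and 453 at 1.5% ethanol. On control replicate 2 none of the 4 spots exceeded the limit of 276.5, and on the other 5 arrays all of them did. The spots of one array were close together, with a coefficient of variation of 4.11% to 7.21%, so the difference lay between arrays and not between spots.

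miR-9* and miR-153b were detected on no array. miR-9* averaged 291 and 199 intensity units in control, 142 and 156 at 1%, and 241 and 179 at 1.5% ethanol. On each control array 1 of its 3 kept spots passed the limit, and on the ethanol arrays none did. That spot read 538 beside 190 and 146 on control replicate 1, and 340 beside 122 and 136 on control replicate 2. The coefficient of variation was 73.7% and 61.2% there. At 1% the spots ran from 115 to 184 on replicate 1 and from 136 to 175 on replicate 2. miR-153b averaged 301 and 165 in control, 165 and 161 at 1%, and 258 and 160 at 1.5%, with 0 of 22 kept spots over the limit. For these 2 probes no fold change is given, since neither side of any comparison was detected. The probe of miR-9 was thus detected on every array and that of its partner strand on none. Levels of different probes are not compared because probes differ in how well they bind. After the normalisation described next, miR-9* was at 7.57 and 7.55 in log2 units in control, 7.08 and 7.28 at 1%, and 7.61 and 7.51 at 1.5% ethanol. Both 1% arrays were below both controls, whose levels each include the 1 high spot. No comparison passed (limma adjusted p = 0.757 at 1%, 0.994 at 1.5% and 0.588 between the doses). miR-153b was at 7.73 and 7.33 in control, 7.30 and 7.34 at 1%, and 7.74 and 7.32 at 1.5%, with all groups overlapping (limma adjusted p = 0.875, 0.994 and 0.873).

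**Figure D1:**
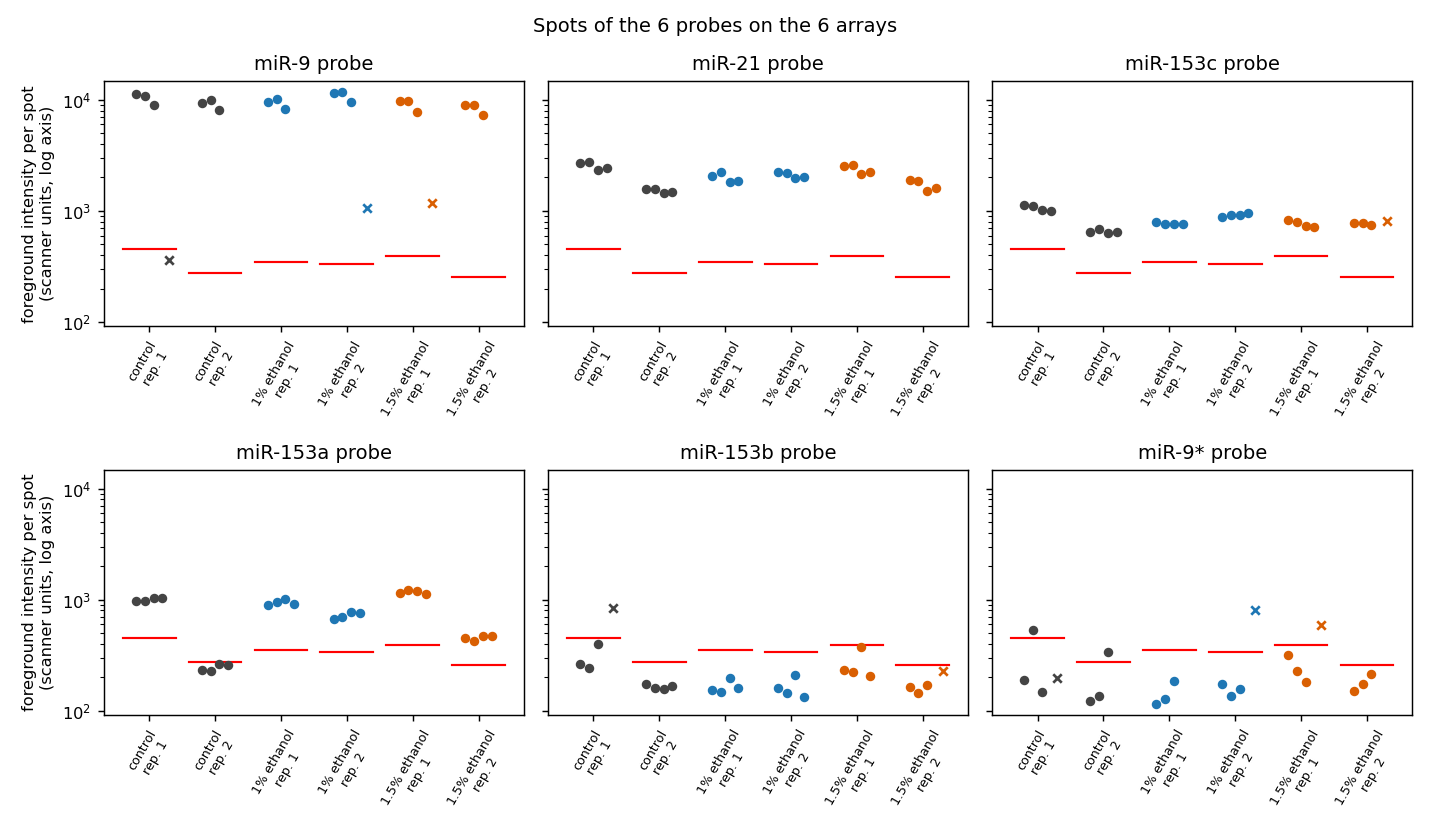
Foreground intensity (scanner units, log axis) of every spot of the 6 probes on the 6 arrays. Dots are kept spots, crosses are spots with the ignore mark (those listed at 0 are not drawn), and red bars are the detection limit of each array, set by its empty and blank spots, between 255.7 and 451.1. All kept spots of miR-9, miR-21 and miR-153c lie above the bars, those of miR-153a do on all arrays but control replicate 2, and of the other 2 probes only 2 kept miR-9* spots do, both in control.

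After background correction and quantile normalisation, miR-9 was at 13.13 and 13.28 log2 units in control, 13.34 and 13.47 at 1% ethanol, and 13.24 and 13.00 at 1.5%. Both 1% arrays lay just above both controls and both 1.5% arrays, and the 1.5% arrays overlapped with the controls. The raw intensities at 1% and in control overlapped. The group levels were 13.20 ± 0.11 in control, 13.41 ± 0.10 at 1% and 13.12 ± 0.16 at 1.5% (SD, n = 2), in the order 1%, control, 1.5%. In log2 units the 1% group differed from control by 0.20 and the 1.5% group by -0.08, each with an SE of 0.17 (limma adjusted p = 0.875 and 0.973). Neither passed the threshold, nor did the difference of -0.29 between 1.5% and 1% (adjusted p = 0.842). As a fold, the 1% estimate was 1.15 with a 95% interval of 0.859 to 1.55, and the 1.5% estimate 0.945 with an interval of 0.704 to 1.27. The value at 1.5% turned positive in the authors' deposited table, at 0.26, and with scaling to the Ncode_Control spots, at 0.28 (under these scalings the median of all probes was 0.32 and 0.26, beside 0.0099 here).

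miR-21 was at 10.89 and 10.85 in control, 11.02 and 11.04 at 1% ethanol, and 11.16 and 10.90 at 1.5%. All 4 ethanol arrays lay above both controls, the closest pair being 10.90 and 10.89, although the raw intensities of the same arrays overlapped. The group levels were 10.87 ± 0.03, 11.03 ± 0.01 and 11.03 ± 0.18 (SD, n = 2). The log2 fold changes were 0.16 at both doses (SE 0.17, limma adjusted p = 0.875 at 1% and 0.958 at 1.5%), as folds 1.11 (95% interval 0.838 to 1.48) and 1.12 (0.839 to 1.48). The doses share their control arrays, so these are not independent of each other. Between the doses the difference was 0.0023 (adjusted p = 0.993).

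miR-153c was at 9.74 and 9.55 in control, 9.61 and 9.84 at 1%, and 9.46 and 9.67 at 1.5% ethanol. The 3 groups overlapped throughout, at 9.65 ± 0.14, 9.73 ± 0.16 and 9.57 ± 0.15 (SD, n = 2). Its log2 fold changes were 0.08 at 1% and -0.08 at 1.5% ethanol (SE 0.18, limma adjusted p = 0.922 and 0.973). The interval of the fold ran from 0.777 to 1.44 at 1% and from 0.694 to 1.29 at 1.5%. The value at 1.5% also turned positive under those scalings, to 0.28 in the authors' deposited table and 0.29 with Ncode_Control scaling.

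miR-153a was at 9.67 and 8.12 in control, 9.99 and 9.48 at 1% ethanol, and 10.14 and 8.98 at 1.5%. At each dose 1 of the 2 ethanol arrays was above both controls and the other lay between them. The group levels were 8.89 ± 1.10, 9.73 ± 0.36 and 9.56 ± 0.82 (SD, n = 2). These gave the largest log2 fold changes among the members, 0.84 at 1% and 0.67 at 1.5% ethanol (SE 0.59, limma adjusted p = 0.875 and 0.958). The folds of 1.79 and 1.59 had 95% intervals of 0.666 to 4.83 and 0.590 to 4.28, which hold values on both sides of 1. By size alone the differences ranked 9 and 7 of 243, and by p-value 46 and 64. The value depended on single arrays. Without control replicate 2, the array on which miR-153a was not detected, the log2 fold change was 0.067 at 1% and -0.11 at 1.5%. Without control replicate 1 it was 1.62 and 1.44. At 1.5% it was 0.091 without the first and 1.25 without the second replicate of that group. In the authors' deposited table the same probe stood at 2.31 and 0.32 in control, 2.61 and 2.33 at 1%, and 2.72 and 1.83 at 1.5%, on a log2 scale relative to control spots. There the 1% arrays lay above both controls, the closest pair being 2.33 and 2.31, on arrays whose medians in that table were 0.35 and 0.24. A limma fit of the authors' deposited table gave 1.15 at 1% (SE 0.52, adjusted p = 0.778) and 0.96 at 1.5% (adjusted p = 0.765). The median of all probes in that fit was 0.27 at 1% and 0.32 at 1.5%. Relative to it, miR-153a was at 0.88 and 0.64.

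**Figure D2:**
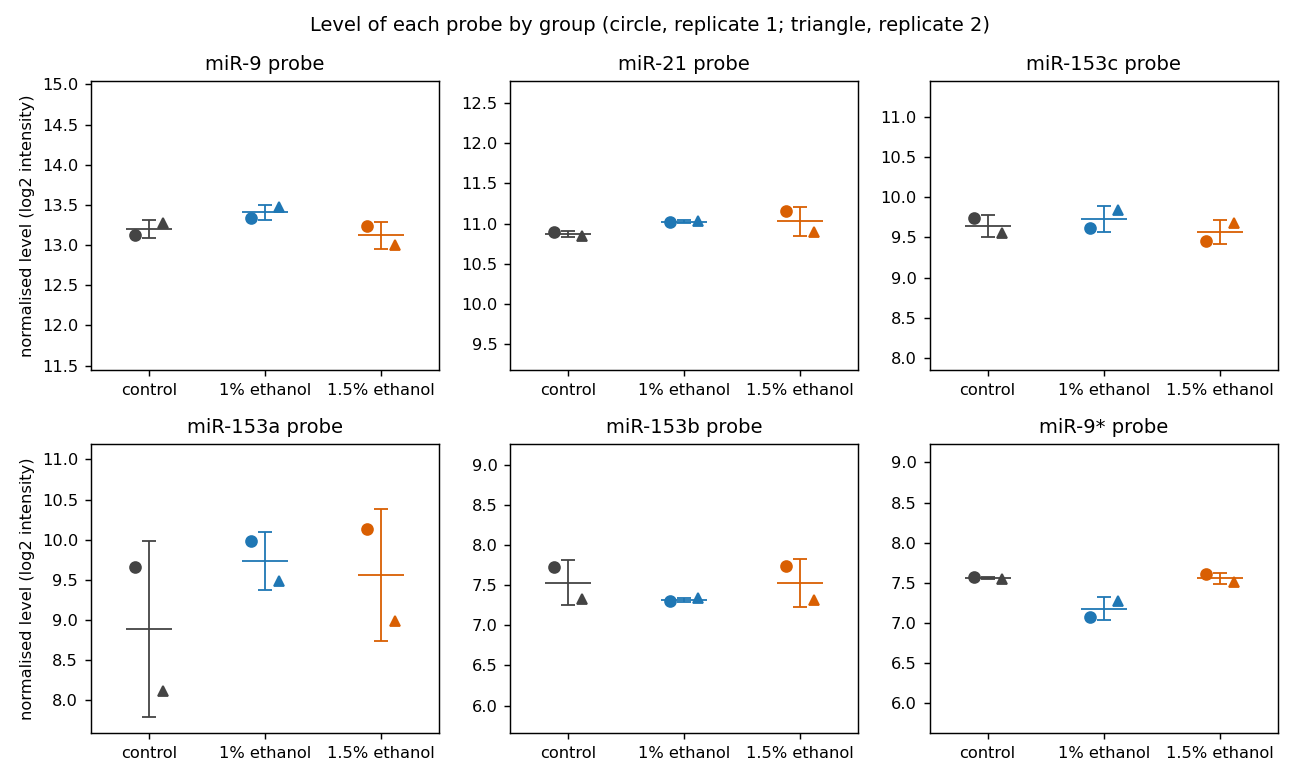
Normalised level (log2 intensity) of each probe by group. Circles are replicate 1, triangles replicate 2, the bar is the group mean and the whiskers the SD (n = 2), and every panel spans the same number of log2 units. miR-9, miR-21 and miR-153c stayed within 0.47 log2 units over all arrays, while miR-153a ran from 8.12 to 10.14.

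Across the 6 arrays the normalised level of miR-21 spanned 0.31 log2 units, that of miR-153c 0.39 and that of miR-9 0.47, beside 2.02 for miR-153a. The SD within groups was 0.11 for miR-21, 0.13 for miR-9, 0.15 for miR-153c and 0.82 for miR-153a. Among the 243 probes, miR-153a had rank 6 by this spread, while miR-153c ranked 167, miR-9 186 and miR-21 203. miR-153a and miR-153c, close relatives by name, therefore differed in the spread of their replicates.

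**Figure D3:**
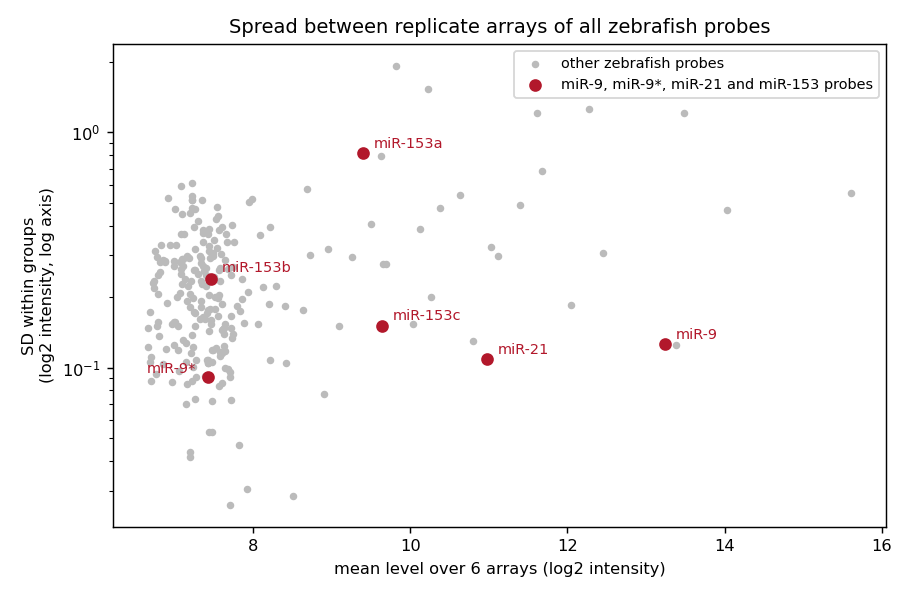
SD within groups (log2 intensity, log axis) against mean level over the 6 arrays (log2 intensity) for the 243 zebrafish probes, with the 6 members in red. miR-9, miR-21 and miR-153c lie at 0.13, 0.11 and 0.15, and miR-153a, with rank 6 of all probes, at 0.82.

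In miR-153a, replicate 1 was higher than replicate 2 in every group, by 1.55 log2 units in control, 0.50 at 1% and 1.16 at 1.5% ethanol. miR-153c did not show it, with differences of 0.19, -0.23 and -0.22. By any amount, replicate 1 was higher in all 3 groups for 30 of the 243 probes and lower in all 3 for 38. Looked for after the values were seen, replicate 1 was above replicate 2 by more than 0.5 in all 3 groups for 3 probes, namely miR-153a, miR-143 and miR-726. That cut lies just under the smallest difference of miR-153a, 0.505. Below the cut, miR-22a (detected on 6 arrays) and miR-100 (on 5) had the same order of replicates. In control miR-22a was at 10.05 and 8.96, and miR-100 at 8.89 and 7.99. miR-726 stood at 12.53 and 10.14 in control, 12.11 and 11.08 at 1%, and 12.64 and 11.22 at 1.5% ethanol, with its lowest value on the same control array as miR-153a. miR-143, a smooth-muscle miRNA, had the same order of replicates but was detected on no array. The labels do not say that a replicate number marks a shared spawning or day, and the part of the spawning, the RNA or the array in this split was not tested.

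No member was called in any comparison. At 1% ethanol 0 of 6 members passed an adjusted p of 0.05, where 0.412% of the 243 zebrafish probes did, a single probe, miR-128. At 1.5% ethanol and between the doses it was 0 of 6 beside 0% of all probes, with limma on the authors' deposited table giving 1 and 3 calls, none a member. An unadjusted p under 0.05 was found for 0 of 6 members in each comparison, beside 6.17% of all probes at 1% (15 of 243), 5.35% at 1.5% (13) and 7.41% between the doses (18). Arrays of the 2 groups did not overlap for 3 of 6 members at 1% (miR-9, miR-21 and miR-9*), beside 37.9% of all probes. The same held for 1 of 6 at 1.5% (miR-21), beside 28.4%, and for 2 of 6 between the doses (miR-9 and miR-9*), beside 32.1%. In raw intensities miR-9 and miR-21 overlapped at 1% and miR-21 at 1.5%, while miR-153c did not overlap between the doses. The median log2 fold change of the 4 detected members was 0.18 at 1% and 0.039 at 1.5%, while the median over all probes was 0.0016 and 0.0099. Over the 84 probes detected on 1 array or more, as these members were, the median was -0.0415 at 1% and 0.0589 at 1.5%. Between the doses the median was -0.17 for the detected members, -0.046 for all probes and 0.0002 for the 84. The values behind these medians depended on the normalisation. With no normalisation, values were also taken relative to the median of all probes. At 1% they were then -0.0081 for miR-9, 0 for miR-21, -0.025 for miR-153c and 0.72 for miR-153a. Between the doses they were 0.072, 0.23, 0.096 and 0.023 in the same order of probes. The moderated F test over the 3 groups passed 0 of 6 members (lowest limma adjusted p = 0.783, for miR-9*), beside 0.412% of all probes (1 of 243, adjusted p = 0.047).

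**Figure D4:**
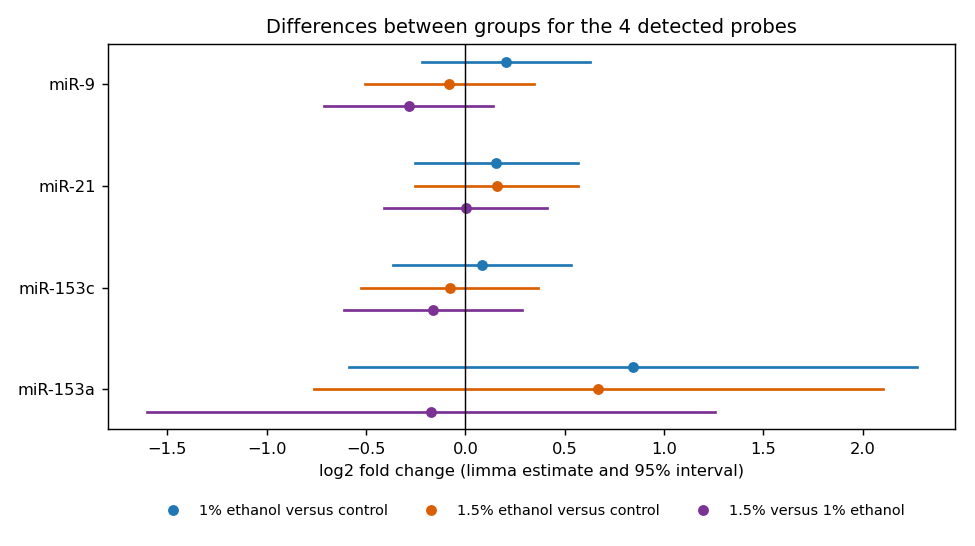
Log2 fold change with its 95% interval (limma) for the 4 probes detected on 1 array or more, in the 3 comparisons. All 12 intervals include 0, and those of miR-153a, with an SE of 0.59, are the widest.

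The arrays lay in pairs on 3 slides, inferred from the scanner files, and each slide held arrays of 2 groups. On slide 1, 1% ethanol minus control was 0.21 for miR-9, 0.12 for miR-21, -0.13 for miR-153c and 0.32 for miR-153a. On slide 2, 1.5% ethanol minus control was -0.04 for miR-9, 0.31 for miR-21, -0.09 for miR-153c and 2.02 for miR-153a, where that control array is the one on which miR-153a was not detected. On slide 3, 1.5% minus 1% ethanol was -0.47 for miR-9, -0.14 for miR-21, -0.17 for miR-153c and -0.50 for miR-153a. miR-9, miR-21 and miR-153a thus had the direction of the pooled comparison with control within a slide, and miR-153c at 1% ethanol did not. Each within-slide value is a single pair of arrays that are also part of the pooled comparison, so a shared direction is partly built in. Blocking on slide left 1 residual degree of freedom, and miR-153a then had a log2 fold change of 1.05 at 1% and 1.29 at 1.5% ethanol (limma adjusted p = 0.604 and 0.402).

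Each slide held an upper and a lower array, and every group had one of each. Among upper arrays, 1% ethanol minus control was 0.35 for miR-9, 0.14 for miR-21, 0.10 for miR-153c and -0.19 for miR-153a. Among lower arrays the same differences were 0.06, 0.17, 0.06 and 1.87. For 1.5% ethanol minus control they were 0.11, 0.26, -0.28 and 0.47 among upper arrays and -0.27, 0.05, 0.12 and 0.87 among lower ones, in the same order of probes. The lower control array is the one on which miR-153a was not detected, so the sizes of its 1.87 and 0.87 are not fixed. The sign at 1.5% thus differed between the upper and the lower pair for miR-9 and miR-153c, and the sign at 1% for miR-153a. Each of these values is a single pair of arrays. At 1.5% the upper pair is replicate 1 and the lower pair replicate 2, so position and replicate cannot be told apart there.

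The arrays also held 7 probes named for miR-9, miR-79, miR-153 or miR-21 of other species and for no member. The probe of mouse and frog miR-9 averaged 176.25 to 208 intensity units per array and that of human, mouse and rat miR-21 169.75 to 233.75, detected on no array. The probe of human, rat and chicken miR-153 averaged 129.5 to 348 and was detected on control replicate 2 alone, the array on which the probe shared by mouse miR-153 and zebrafish miR-153a was not. The 4 worm and insect probes of miR-9b, miR-9c and miR-79 were likewise detected on none. Fitted with all miRNA probes of the array, none of the 7 passed at either dose (limma adjusted p of at least 0.95). How far the sequences of these probes differ from the zebrafish ones was not compared here.

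Among the 28 probes detected on all 6 arrays, those nearest to a member were found by the root mean square difference of their values over the 6 arrays, each probe centred on its own mean. For miR-9 they were the muscle miRNA miR-1 (0.0651 log2 units), miR-430j (0.123) and miR-21 (0.143), beside a median of 0.282 over the 27 candidates. For miR-21 they were miR-16c (0.124), miR-1 (0.136) and miR-9 (0.143), beside a median of 0.284. For miR-153c they were miR-155 (0.126), miR-18a (0.129) and miR-196b (0.152), beside 0.248.

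Other neural miRNAs were counted for comparison. Of 22 neural and neural progenitor probes, 7 were detected on 1 array or more. At 1% ethanol 1 of the 22 passed, miR-128, a neuronal miRNA, which fell by 1.95 log2 units (SE 0.20, limma adjusted p = 0.0149), from 8.91 and 8.78 in control to 6.81 and 6.98, and was detected on neither 1% array, so the size is not fixed. The call was lost without control replicate 1, control replicate 2 or 1% replicate 1, where the lowest limma adjusted p of any probe was 0.323, 0.212 and 0.077. It was also lost with the median over spots, with Ncode_Control scaling and in limma on the authors' deposited table. At 1.5% ethanol and between the doses 0 of 22 passed. The list's 3 probes of highest mean signal were miR-218a, miR-132 and miR-34c. miR-218a, of motor neurons, was at 14.96 ± 0.95 at 1% against 15.95 in control (limma adjusted p = 0.749). Its 1% arrays stood at 14.29 and 15.63, its controls at 15.96 and 15.95, and its 1.5% arrays at 15.97 and 15.835. Saturated spots were counted on every array, from 3 to 7. The probes they belong to are not given here, so the miR-218a levels may be limited by saturation in any group. miR-132, an activity-dependent neuronal miRNA, was at 13.60 ± 0.08 in control and 13.28 ± 0.20 at 1% (limma adjusted p = 0.875). miR-34c was at 9.64 ± 0.14 and 9.44 ± 0.12 (limma adjusted p = 0.915, SD, n = 2 throughout). The list's median log2 fold change was 0.13 at 1% and 0.0095 at 1.5%, with most of its probes detected on no array.

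Of 16 further miRNAs named in rodent ethanol work, 0 passed at 1%, at 1.5% or between the doses, and 5 were detected on 1 array or more. The 3 of highest mean signal were epidermal miR-203a, miR-30e and the immune miRNA miR-155. miR-203a was at 13.91 ± 0.74 in control, 12.43 ± 1.96 at 1% and 14.12 ± 0.13 at 1.5% (SD, n = 2, limma adjusted p = 0.875 and 0.973 against control). miR-30e was at 11.68 ± 0.11, 11.40 ± 0.50 and 11.11 ± 0.68 (adjusted p = 0.915 and 0.958 by limma), and miR-155 at 9.67 ± 0.10, 9.81 ± 0.46 and 9.58 ± 0.09 (0.915 and 0.973). At 1.5% ethanol 11 of the 16 log2 fold changes were below 0, with a median of -0.23 beside 0.0099 over all probes. At 1%, 7 of 16 were below 0, with a median of 0.0098 beside 0.0016. As only 5 of the 16 were detected on any array, most of these signs come from probes in the range of the empty spots. No direction of the list is read from them.

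**Figure D5:**
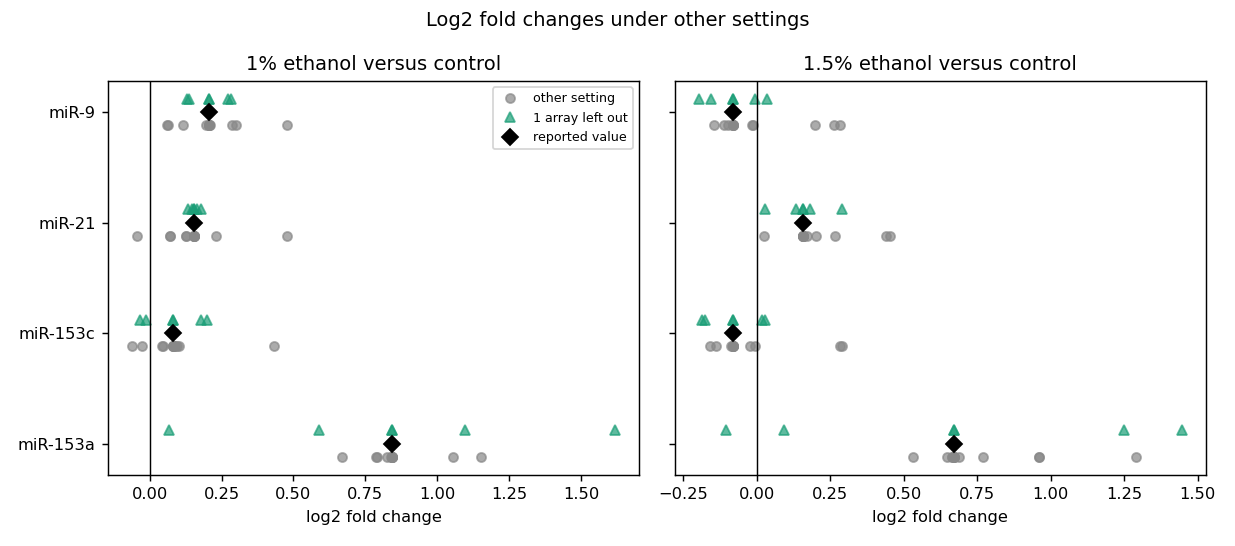
Log2 fold changes of the 4 detected probes at 1% (left) and 1.5% ethanol (right) under 19 other settings. Diamonds are the reported values, triangles leave out 1 array each and dots are other settings. miR-153a ran from 0.067 to 1.62 at 1% and from -0.11 to 1.44 at 1.5%, and miR-9 from 0.06 to 0.48 at 1%.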

How the data were processed

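The deposited scanner files hold raw foreground and local background intensity per spot in 1 Cy3 channel, without background subtraction, per the file headers. Per the labels' protocols, total RNA with a RIN above a set minimum was labelled directly with a Cy3-ULS kit. The authors' deposited log2 table was rebuilt as mean log2 foreground of kept spots of intensity 100 or more minus that of the Ncode_Control spots (1438 of 1440 values within 0.001, 18 missing). It served as an alternative. The medians of its arrays ran from -0.20 to 0.48.

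Intensities were corrected by normexp (offset 50) and quantile normalised on the log2 scale over all miRNA spots. Spots with the ignore mark (4.64% to 11.7% per array) and spots listed at 0 in both foreground and background (14 unmarked spots on each of 3 arrays) were left out, and the kept spots of a probe averaged. The software was limma 3.58.1 in R 4.3.3. One model of 3 groups on 6 arrays (3 residual degrees of freedom, prior 3.18) was fitted to all 243 zebrafish probes. Its code was tested on simulated data with planted changes larger than any log2 fold change of the members in this model. That test therefore does not tell whether changes of the members' size could be found. Two-sided p-values took the Benjamini-Hochberg adjustment over the 243 probes, with a threshold of 0.05. With 2 arrays against 2, the smallest p of an exact permutation test is 0.333, and the number of arrays limits the precision (median SE 0.209).

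The 6 members were always named, with the 3 brightest probes of each list, any probe past the threshold and the 3 nearest profiles. Members and lists were chosen with earlier results of these data known. Alternatives added after seeing the data were position on the slide as a block and spots listed at 0 kept. Mature sequences are not used here.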

Additional observations from a re-analysis of the deposited data

How the results depend on the processing

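No member passed the threshold under any of 19 alternatives in any comparison. The limma adjusted p was at least 0.402 for miR-9, miR-21, miR-153a and miR-153c, the members for which it was kept under all alternatives. Of 228 values for miR-9, miR-21, miR-153a and miR-153c, 201 kept their direction and 27 did not. Part of the 201 could not change. The replicate block, the position block and settings that changed only which probes were tested repeat the reported log2 fold change. So does leaving out an array of the group outside a comparison. Taken relative to the median of all probes in each setting, 186 of the 228 kept their direction, 39 did not and 3 were 0. miR-9* and miR-153b have no such values, being detected on no array. With Ncode_Control scaling the log2 fold change at 1.5% ethanol became 0.28 for miR-9 and 0.29 for miR-153c, and 1.5% minus 1% became 0.17 for miR-9, 0.12 for miR-153a and 0.19 for miR-153c. In the authors' deposited table the 1.5% values were 0.26 for miR-9 and 0.28 for miR-153c, which relative to the median of all probes were -0.059 and -0.036 and so not reversed, and 1.5% minus 1% was -0.035 for miR-21. These 2 scalings moved the median of all probes to 0.13 and 0.27 at 1% and to 0.26 and 0.32 at 1.5%. Relative to that median, miR-9 at 1% was -0.0081 under the Ncode_Control scaling and 0.21 in the authors' deposited table, and miR-153a 0.72 and 0.88. No normalisation moved the median of all probes to -0.17 at 1.5% and to -0.28 between the doses. There miR-21 was -0.046 between the doses, which relative to the median was 0.23 and so not reversed. The same step reversed others: between the doses miR-9 went from -0.21 to 0.072, miR-153a from -0.26 to 0.023 and miR-153c from -0.18 to 0.096. At 1.5% miR-9 went from -0.15 to 0.023 and miR-153c from -0.14 to 0.03. At 1% miR-9 went from 0.0613 to -0.0081 and miR-153c from 0.0445 to -0.0249. Relative to the median, 75th percentile scaling gave the same values. With ignored spots kept, miR-153c was -0.025 and miR-21 -0.043 at 1%, miR-9 was 0.20 at 1.5%, and 1.5% minus 1% was 0.10 for miR-153a and 0.0029 for miR-153c. With slide as a block miR-153c was -0.060 at 1%, and 1.5% minus 1% was 0.24 for miR-153a and -0.029 for miR-21. The cause of these reversals was not tested.

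With 1 array left out, miR-9 ran from 0.13 to 0.28 at 1%, -0.20 to 0.034 at 1.5% and -0.40 to -0.17 between the doses. For miR-21 the ranges were 0.13 to 0.18, 0.027 to 0.29 and -0.13 to 0.13, for miR-153c -0.033 to 0.20, -0.19 to 0.028 and -0.28 to -0.047, and for miR-153a 0.067 to 1.62, -0.11 to 1.44 and -0.75 to 0.41. A lone array is assumed to vary like the other groups.

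Calls among all probes were 1 at 1%, 0 at 1.5% and 0 between the doses. They became 2, 0 and 2 with no normalisation, 2, 2 and 4 with Ncode_Control scaling, 0, 0 and 0 with the median over spots, 0, 1 and 3 in the authors' deposited table, 2, 0 and 1 with all miRNA probes tested, and 3, 0 and 3 with slide as a block. With 1 array left out they ran from 0 to 3, 0 to 0 and 0 to 3. None of these was a member.

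The replicate block gave 1, 0 and 0 calls, and miR-153a kept 0.84 at 1% with an SE of 0.27 in place of 0.59 (adjusted p = 0.588). Differences between replicates correlated across probes at -0.03, 0.26 and -0.03 between pairs of groups, and the labels do not say what the replicate number marks, so no pairing was used. Values near the empty spots limit what miR-9* and miR-153b can show.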
